A study of Mus musculus with 4 samples.

Results

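The genes described here build ribosomes. The set names 49 genes: those for subunits of RNA polymerase I, abundant nucleolar proteins, the proteins of small nucleolar ribonucleoproteins, assembly factors of the small and of the large ribosomal subunit, and a pair of polyamine enzymes. Members were taken by gene symbol, and 48 of the 49 had a value among the 13749 gene symbols of the deposited table. Nop58, which codes for a core protein of box C/D particles, is not analysed here. RNA was sequenced from LSK cells, the lineage-negative, Sca-1-positive, Kit-positive bone marrow fraction that holds blood stem cells and multipotent progenitors. The cells were sorted from C57BL/6 mice aged 8 weeks, 8 of them wild type (Asxl1+/+) and 8 heterozygous for a frameshift allele of the chromatin gene Asxl1 (Asxl1G643fs/+). Each genotype, wild type (WT) and knock-in (KI), had 2 libraries, called WT-1 and WT-2, or KI-1 and KI-2. The labels did not say how the 8 mice of a genotype were divided over its 2 libraries, so that the spread behind each p-value may be technical.

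In the nucleolus, RNA polymerase I transcribes a long precursor that holds the RNAs of both ribosomal subunits. Box C/D particles methylate that precursor and box H/ACA particles convert uridines to pseudouridine, each directed by a small nucleolar RNA (snoRNA). The small-subunit processome then folds and cuts the precursor, and separate factors assemble the large subunit before export to the cytoplasm. The transcription factor MYC is a well-known activator of this programme, and blood stem cells are known for a low rate of protein synthesis.

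Several members carry snoRNA genes within their own span, so that host and guide can come from the same primary RNA. In the GENCODE M21 annotation (GRCm38), 8 of the 48 members with a value, or 16.7%, held a snoRNA gene on their own strand, against 1.77% of 10528 annotated genes among all those tested. These 8 genes, Ncl, Gnl3, Nop56, Dkc1, Wdr43, Tsr1, Ppan and Odc1, held 20 snoRNA genes in all, none of which had a value of its own in the table. An example of each class from Ncl, the gene of nucleolin, is shown because the host is the member that fell most in number 2. Snord82 lies at chr1:86356261-86356330 and Snora75 at chr1:86351169-86351301, both on the minus strand, and DNA letters are given 5′ to 3′. Capitals in Snord82 mark the C box letters TGATGA and the last CTGA, the D box letters, searched on the RNA strand only. Of 1483 annotated snoRNA genes, 24.9% held both. Capitals in Snora75 mark the last ACA, and 45.6% of all snoRNA genes held ACA within their last 6 bases.
Snord82: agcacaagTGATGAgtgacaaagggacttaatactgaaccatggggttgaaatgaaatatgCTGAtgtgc
Snora75: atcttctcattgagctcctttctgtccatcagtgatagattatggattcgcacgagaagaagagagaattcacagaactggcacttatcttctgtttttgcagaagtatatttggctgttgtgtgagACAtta

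Promoter windows, 250 bases before to 50 after the annotated start, were listed by RefSeq (GRCm38.p6) for 43 of the 48 members. The letters CACGTG, the E-box to which MYC and its relatives bind and which reads the same on both strands, were in the window of 8 of those 43 members, or 18.6%, and of 12.2% of 8404 tested genes with a window. The 8 were Imp4, Nop2, Utp20, Pes1, Mybbp1a, Tsr1, Utp18 and Wdr43. A match is a description of the letters and not a bound site. The windows are shown for Mybbp1a, which had the smallest p of the members in the authors' deposited table, for Ncl, the member lowest in number 2 relative to number 1, and for Nhp2, the member highest in it. Capitals mark CACGTG, which begins 40 bases after the start of Mybbp1a and is not in the windows shown for Ncl and Nhp2. The windows lie at chr11:72441077-72441376 on the plus strand, chr1:86359406-86359705 on the minus strand and chr11:51619523-51619822 on the plus strand.
Mybbp1a: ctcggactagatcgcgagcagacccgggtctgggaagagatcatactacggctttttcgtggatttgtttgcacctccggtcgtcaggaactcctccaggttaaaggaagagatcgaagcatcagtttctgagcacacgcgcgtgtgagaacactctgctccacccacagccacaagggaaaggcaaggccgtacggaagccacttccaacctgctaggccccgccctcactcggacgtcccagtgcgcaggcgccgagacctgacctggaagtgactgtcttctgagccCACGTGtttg
Ncl: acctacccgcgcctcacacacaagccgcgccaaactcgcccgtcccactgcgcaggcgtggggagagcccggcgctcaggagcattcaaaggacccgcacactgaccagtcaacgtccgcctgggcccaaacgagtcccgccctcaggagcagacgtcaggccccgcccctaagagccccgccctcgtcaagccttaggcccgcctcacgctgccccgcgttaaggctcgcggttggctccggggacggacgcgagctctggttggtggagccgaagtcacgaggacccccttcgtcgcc
Nhp2: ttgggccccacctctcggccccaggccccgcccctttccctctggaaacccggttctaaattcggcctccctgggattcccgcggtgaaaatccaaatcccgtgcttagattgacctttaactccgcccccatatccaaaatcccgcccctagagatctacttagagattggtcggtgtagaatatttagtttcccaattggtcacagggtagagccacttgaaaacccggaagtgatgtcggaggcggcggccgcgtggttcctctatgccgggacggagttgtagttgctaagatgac

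Values are the authors' FPKM (fragments scaled by transcript length and by the size of the library), summed over the transcripts of a symbol, and a mean over the 4 libraries of at least 1 was needed for a test. All 48 members passed that filter, with 11083 genes tested in all. The listed FPKM summed to between 324255 and 411542 per library, and the sequencing depth is unknown. Where 4 values follow each other below, the WT pair comes first and the KI pair second, each with number 1 before number 2. Asxl1 stood at 20.8 and 18.8 FPKM in WT and 22.2 and 19.1 in KI (number 1 first in each genotype), and a frameshift need not change the level of an mRNA. All 8 markers of LSK and progenitor cells had a value, and they summed to between 677 and 942 FPKM. Markers of other cells were lower in sum. The 4 B cell markers summed to 22.4 and 23.8 FPKM in WT-1 and KI-1 and to 46.7 and 73.4 in WT-2 and KI-2, while 5 of 6 granulocyte markers summed to 60.3 and 134 against 20.7 and 25.9. The 3 of 5 T cell markers with a value summed to at most 2.07, 4 of 5 erythroid markers to between 9.28 and 27.2, 3 of 4 monocyte markers to between 33.5 and 45.9, and 1 of 2 natural killer markers to between 0.835 and 4.62. Cd3e, Cd8a, Ly6g, Adgre1, Hbb-b1 and Ncr1 are not analysed here, and no marker was listed at 0. The LSK, B cell and natural killer sums were higher and the granulocyte and erythroid sums lower in number 2 in both genotypes. Within each number, the granulocyte, B cell, T cell, monocyte and erythroid sums were higher and the LSK sum lower in KI. Their part in the results below was not tested. In bulk RNA, fewer cells of a type and less RNA per cell cannot be told apart.

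The members spanned a wide range of levels. The highest was Npm1, which codes for nucleophosmin, a chaperone of the nucleolus that is mutated in acute myeloid leukaemia, at 1835 and 1295 FPKM in WT and 1783 and 1280.1 in KI. Its reads could be shared with its processed pseudogenes, and it had 3 transcript rows. Nucleolin (Ncl), an RNA-binding protein of the nucleolus, came next at 443, 289.6, 450.1 and 299 FPKM in the same order of libraries. The lowest mean was that of Bysl, a factor of small-subunit maturation, at 6.01, 7.42, 6.71 and 9.72 FPKM. Together the members held 1.33% and 1.34% of the listed FPKM in WT-1 and KI-1, against 0.950% and 0.990% in WT-2 and KI-2. The shares thus differed by library number and hardly by genotype, and Npm1 and Ncl together made up 50.7% and 41.4% of the members' sum in WT and 51.4% and 38.8% in KI.

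**Figure D1:**
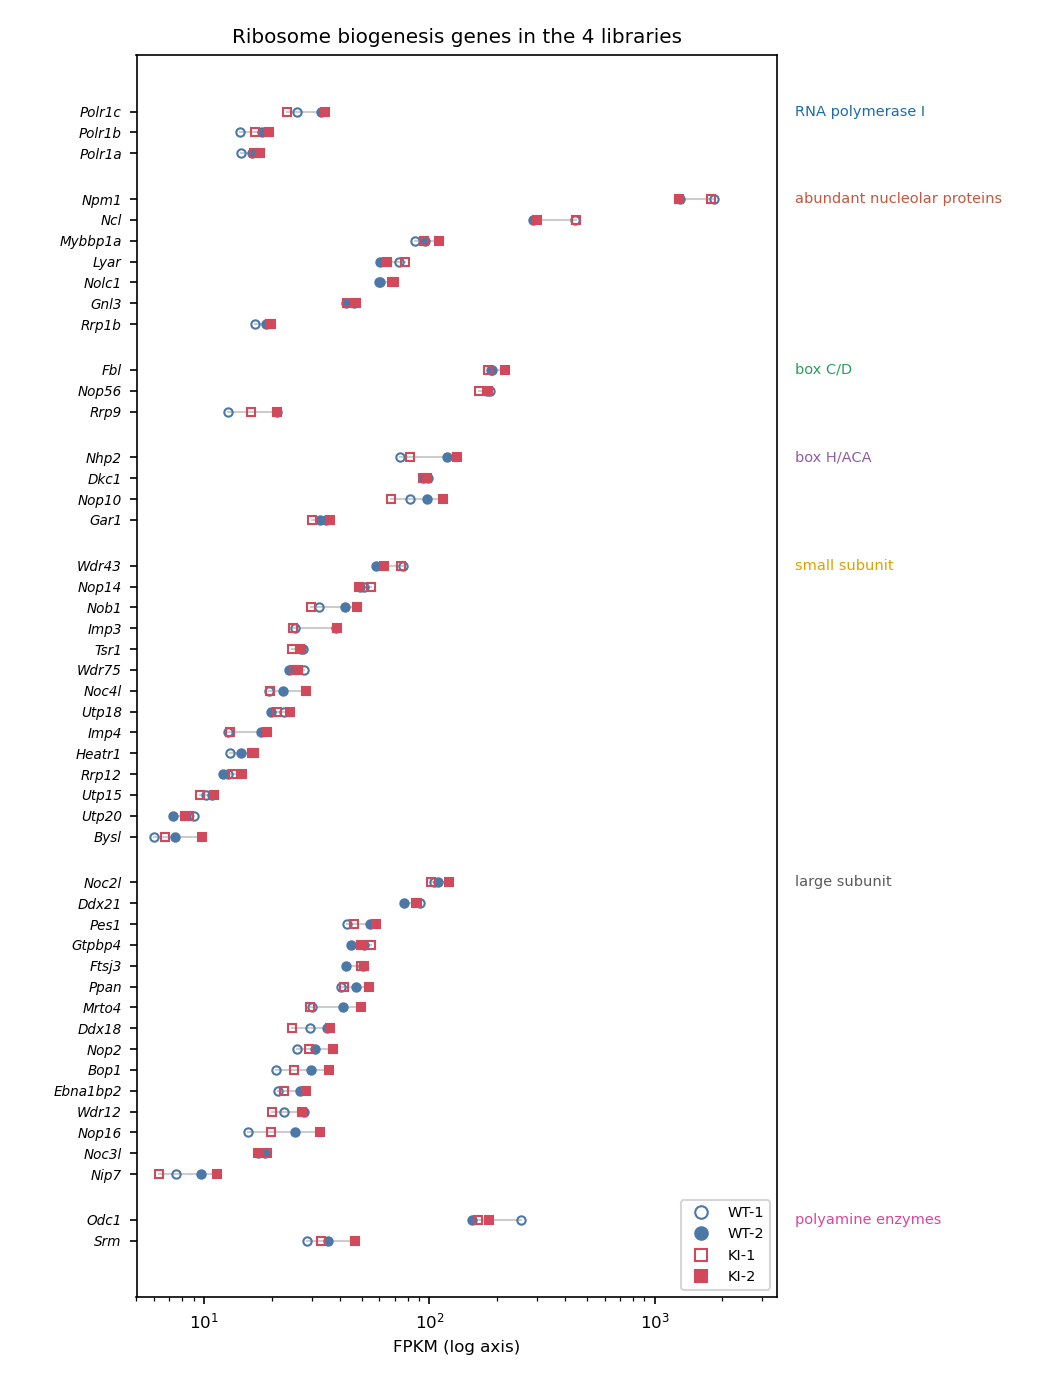
Level of each of the 48 members in the 4 libraries, in FPKM on a log axis, grouped by role and ordered by mean within a role. Circles are WT and squares KI, open for number 1 and filled for number 2, and the grey line spans the 4 values. Npm1 stands between 1280.1 and 1835 FPKM and Bysl between 6.01 and 9.72, and for 37 of the 48 members the difference between numbers is larger than that between genotypes on the log2 scale. Over all genes tested the median signed difference was 0.27 between numbers and 0.0075 between genotypes. The share of all genes with the larger difference between numbers was not computed, so the count has no background.

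KI was first set against WT, the comparison that bears on the Asxl1 allele. Most members stood slightly higher in KI, 34 of 48 or 70.8% by their mean difference, against 52.1% of all genes tested, but the differences were small beside the spread between libraries. None passed the test (0 of 48, limma with Benjamini-Hochberg adjustment over all genes, adjusted p of 1.0 for every member), where 0% of all genes were called. At an unadjusted p under 0.05 there were also 0 members, against 0.235% of all genes higher and 0.189% lower, and the smallest unadjusted p of a member was 0.269. Genotype was the only term of this fit, so the difference between numbers is part of its SEs and p-values, here and below. With the library number as a term, 6 of 48 members had an unadjusted p under 0.05, all higher in KI. Of 11083 genes, 402 were higher and 385 lower, a smaller share on the higher side than among the members. The smallest unadjusted p of a member was then 0.0086, for Nop16 (limma, adjusted p = 0.68). The median difference of the members was 0.068 on the log2(FPKM + 1) scale, which understates the change of low genes, against 0.0075 over all genes tested. Without KI replicate 2 the members' median was -0.027, against -0.12 over all genes tested. Without KI replicate 1 it was 0.20, against 0.13. Leaving out 1 library unbalances the numbers between genotypes, so the difference between numbers enters these medians.

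The higher values in KI lay mostly within number 2. There 43 of 48 members were higher in KI-2 than in WT-2, against 49.9% of all genes, with a median of 0.14 on the log2 scale. In number 1 the count was 24 of 48, against 53.2% of all genes, with a median of -0.0042. In both numbers KI was higher for 22 members, or 45.8%, against 28.7% of all genes, and lower for 3 members, Npm1, Tsr1 and Wdr12, or 6.25%, against 25.5%. KI-2 was the highest of the 4 libraries for 32 members, or 66.7%, against 38.0% of all genes, and WT-2 for 1 member, Wdr12, against 38.1%. Both KI libraries lay above both WT libraries for 5 members, Polr1a, Nolc1, Rrp1b, Rrp12 and Heatr1, where 6.39% of all genes did, and below them for 1 member, where 7.06% did. Each library of a number is alone in its genotype there, so that these counts hold no replicate check.

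**Figure D2:**
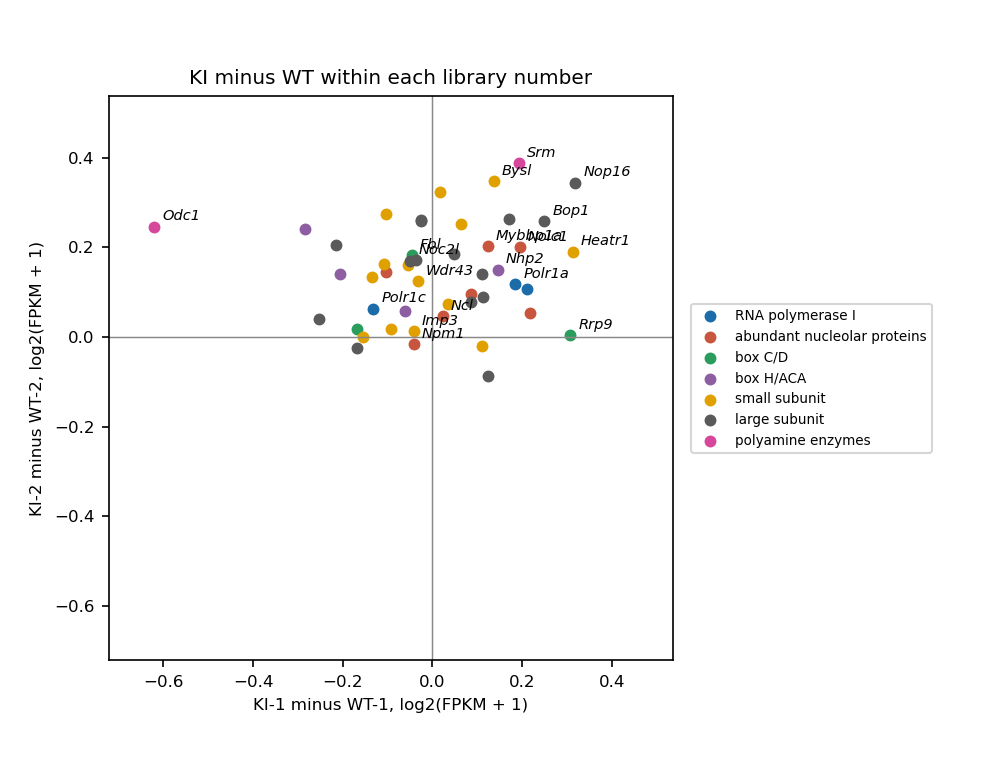
Difference between KI and WT in number 1 (x axis) and in number 2 (y axis) for each of the 48 members, in log2(FPKM + 1), coloured by role, with lines at 0. Points lie above 0 on the y axis for 43 members and right of 0 on the x axis for 24, and Odc1 stands apart at -0.62 in number 1 and 0.25 in number 2.

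The genes of RNA polymerase I differed little. Polr1a, the largest subunit, was measured at 14.5 and 16.3 FPKM in WT and 16.7 and 17.8 in KI, so that both KI libraries lay above both WT libraries. The WT mean was 15.4 ± 1.25 and the KI mean 17.2 ± 0.783 (SD, n = 2), a log2 difference of 0.15 with SE 0.21. Polr1b, the second-largest subunit, stood at 14.4, 18.0, 16.9 and 19.5 FPKM and was higher in KI within each number, while the groups overlapped. Polr1c, a subunit shared with RNA polymerase III, stood at 25.7, 32.9, 23.4 and 34.4 FPKM, with a log2 difference of -0.035 and SE 0.27.

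Among the abundant nucleolar proteins, Nolc1 differed little within genotypes. This scaffold of snoRNA particles and Cajal bodies stood at 59.5 and 60.3 FPKM in WT and 68.2 and 69.5 in KI. The groups did not overlap, at 59.9 ± 0.619 in WT and 68.8 ± 0.941 in KI (SD, n = 2), with a log2 difference of 0.20 and SE 0.20. Limma's fit draws each gene's spread toward that of other genes, so its SE need not follow these SDs. Rrp1b, a nucleolar protein of ribosomal RNA processing, also showed no overlap in the sum of its rows, at 16.8, 18.9, 19.7 and 19.6 FPKM, while its leading transcript row overlapped. Mybbp1a, a nucleolar protein that binds MYB and RNA polymerase I, stood at 86.7, 95.6, 94.5 and 110.2 FPKM and was higher in KI within each number. Lyar was measured at 73.4, 60.6, 77.96 and 64.9 FPKM, again higher in KI within each number and lower in number 2. Gnl3, nucleostemin, a GTPase known from stem cells, stood at 46.2, 42.5, 43.0 and 47.0 FPKM, with no common direction. Ncl and Npm1 had a far larger spread within genotypes than between them, with means of 366 ± 108 and 375 ± 107 FPKM for Ncl in WT and KI (SD, n = 2) and 1565 ± 382 and 1532 ± 356 for Npm1. Their log2 differences were 0.035 (SE 0.36) and -0.029 (SE 0.42).

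Like most members, the genes for proteins of snoRNA particles shared a direction in number 2 and not in number 1. In number 2, all 3 box C/D genes with a value and all 4 box H/ACA genes were higher in KI. So were 43 of all 48 members, where 49.9% of all genes were. Rrp9 and Nop56 were nearly level there, with log2 differences of 0.0036 and 0.019. In number 1, 1 of the 3 and 1 of the 4 were higher in KI, where 53.2% of all genes were. Fbl, fibrillarin, the methyltransferase of box C/D particles, stood at 188 and 190.4 FPKM in WT and 182 and 216 in KI, with a log2 difference of 0.068 and SE 0.24. Nop56, a core box C/D protein, stood at 186, 179.7, 165 and 182 FPKM. Rrp9, which belongs to the U3 particle, stood at 12.8, 21.0, 16.0 and 21.1, with a log2 difference of 0.16 and SE 0.30. Of the 4 box H/ACA genes, 1 was higher in KI by its mean difference. That was Nhp2, at 74.1, 119.6, 82.1 and 132.8 FPKM, with a log2 difference of 0.15 and SE 0.35. Dkc1, dyskerin, the pseudouridine synthase that is mutated in dyskeratosis congenita, was nearly flat at 98.2, 93.3, 94.1 and 97.2 FPKM. Nop10, the smallest protein of the particle, stood at 82.2, 97.2, 67.3 and 115 FPKM, and Gar1 at 34.9, 32.7, 30.1 and 36.1, both lowest in KI-1 and highest in KI-2.

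Of the 14 small-subunit factors, 10 were higher in KI by their mean difference. Heatr1, a processome protein that also acts in transcription by RNA polymerase I, had the smallest unadjusted p of all members in the fit with genotype alone. It stood at 12.99 and 14.5 FPKM in WT and 16.4 and 16.7 in KI, without overlap, at 13.7 ± 1.06 in WT and 16.5 ± 0.211 in KI (SD, n = 2). Its log2 difference was 0.25 with SE 0.21. Rrp12 also showed no overlap, at 12.7, 12.1, 13.4 and 14.6 FPKM. Tsr1, a late assembly factor, was the member with both KI libraries below both WT libraries, at 27.5, 26.8, 24.6 and 26.7 FPKM, although KI-2 lay just under WT-2. Wdr43, the most abundant of these factors, stood at 76.3, 57.7, 74.6 and 63.0 FPKM, with a log2 difference of 0.046 and SE 0.24. Imp3, a protein of the U3 particle, stood at 25.4, 38.4, 24.7 and 38.8 FPKM, with a log2 difference of -0.014 and SE 0.32. Bysl was higher in KI within each number, as were Imp4 (12.7, 17.9, 13.1 and 18.9 FPKM) and Noc4l (19.4, 22.4, 19.7 and 28.3).

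Of the other small-subunit genes, Nob1, the endonuclease that makes the mature end of the small-subunit RNA, stood at 32.3, 42.3, 29.9 and 47.5 FPKM. Nop14 stood at 51.1, 49.3, 55.2 and 48.6 FPKM, and its KI values lay on both sides of its WT values. Utp15, Utp18, Utp20 and Wdr75, further processome proteins, were each lower in KI-1 than in WT-1 and higher in KI-2 than in WT-2. Utp18 ranged from 19.7 FPKM in WT-2 to 24.0 in KI-2, and Utp20 from 7.26 in WT-2 to 8.96 in WT-1.

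Of the 15 large-subunit factors, 12 were higher in KI by their mean difference, while in each the genotypes overlapped. Nop16 had the largest difference of all members, with 15.6 and 25.4 FPKM in WT and 19.7 and 32.5 in KI. The WT mean was 20.5 ± 6.92 and the KI mean 26.1 ± 9.05 (SD, n = 2), a log2 difference of 0.33 with SE 0.34. The spread between numbers was thus larger than the difference between genotypes, and with the library number as a term the SE was 0.083. Bop1, Pes1 and Wdr12 form the PeBoW complex, which is needed for large-subunit RNA processing. Bop1 stood at 20.8, 29.8, 24.98 and 35.9 FPKM and Pes1 at 42.9, 54.3, 46.5 and 57.9, both higher in KI within each number. Wdr12 was lower in KI within each number, at 22.6, 27.7, 20.0 and 27.2 FPKM, so that the 3 partners did not share a direction. Nop2, a methyltransferase of the large-subunit RNA, stood at 25.9, 30.9, 29.3 and 37.4 FPKM, and the GTPase gene Gtpbp4 at 51.0, 45.0, 55.1 and 49.7, both higher in KI within each number.

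Noc2l, the most abundant large-subunit factor, stood at 105, 108.8, 101.6 and 123 FPKM, with a log2 difference of 0.061 and SE 0.23. Ddx21 and Ddx18 code for RNA helicases. Ddx21 stood at 90.4, 77.2, 88.1 and 87.1 FPKM and Ddx18 at 29.4, 35.2, 24.6 and 36.2, with no common direction. Ebna1bp2 (21.3, 26.6, 22.7 and 28.2 FPKM) and Ppan (40.4, 47.4, 41.8 and 54.0) were higher in KI within each number. Mrto4 (30.1, 41.2, 29.6 and 49.5), Nip7 (7.47, 9.72, 6.30 and 11.4) and Ftsj3 (50.8, 42.7, 49.9 and 51.4) were lower in KI-1 than in WT-1 and higher in KI-2 than in WT-2. Noc3l went the other way, at 17.4, 18.5, 19.0 and 17.4 FPKM.

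Srm and Odc1 belong to polyamine synthesis and not to ribosome assembly, although both are known MYC targets. Srm, spermidine synthase, stood at 28.6 and 35.3 FPKM in WT and 32.9 and 46.5 in KI, with a log2 difference of 0.29 and SE 0.26. Odc1, ornithine decarboxylase, the enzyme of the committed step, stood at 254, 155, 165 and 184 FPKM, with a log2 difference of -0.19 and SE 0.31. WT-1 was far above the other libraries for Odc1, and without it the difference was 0.17. Without this pair, the median of the remaining 46 members was also 0.068. Myc itself stood at 116 and 145 FPKM in WT and 96.3 and 147 in KI, and Mycn at 9.94, 14.6, 5.48 and 10.9. Both were lowest in KI-1, where the members had no common direction against WT-1.

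The authors' deposited table gives its own comparison of KI with WT per transcript, made on normalized values in which the difference between numbers was nearly removed. In those values the difference between numbers had an SD over genes of 0.0041, against 0.43 in log2(FPKM + 1). Taking the most abundant transcript of each gene, 13 of 48 members were higher in KI at an unadjusted p under 0.05 in the authors' deposited table, where 12.2% of all tested genes were, and 1 was lower, where 10.6% were. No member passed an adjusted p of 0.05 there. The smallest was that of Mybbp1a, with a signed fold of 1.09 and an adjusted p of 0.0882 in the authors' deposited table. Bop1 had a fold of 1.14 with an adjusted p of 0.120, Heatr1 1.14 with 0.128 and Nop16 1.18 with 0.129 in the authors' deposited table. The member that was lower was Nop56, with a fold of -1.03 in the authors' deposited table. These p-values rest on the same 4 libraries and are not independent of the values above. Values with the difference between numbers removed spread less within a genotype, so that these p-values can be too small.

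The libraries numbered 2 differed from those numbered 1 far more than the genotypes did. The labels do not say what the number stands for. The members moved apart: with and without scaling, Nhp2 and Imp3 were higher in number 2, and nucleolin and nucleophosmin were lower. Of the 48 members, 16 were higher in number 2 (limma, adjusted p under 0.05), where 35.6% of all genes were called, and 4 were lower, where 4.60% were. The median over all genes was 0.27 on the log2 scale, so that a difference of scale between libraries enters these counts, and the members' median was 0.13. With each library scaled to the same median, 2 members were called higher, where 9.12% of all genes were, and 7 lower, where 10.4% were, and the members' median turned to -0.12. Both members called higher after scaling, Imp3 and Nhp2, and all 4 members called lower without it, Lyar, Ncl, Npm1 and Wdr43, were called in both fits. Without WT replicate 2 the counts without scaling were 8 higher and 2 lower, and without KI replicate 2 they were 2 and 1.

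**Figure D3:**
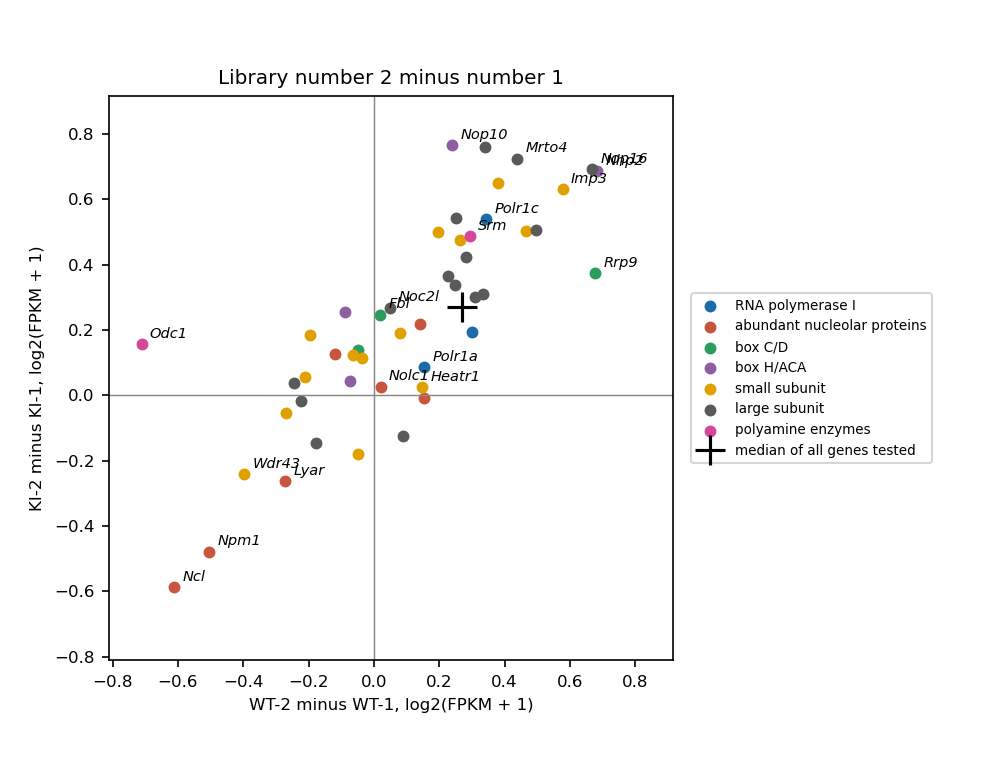
Difference between number 2 and number 1 in WT (x axis) and in KI (y axis) for each of the 48 members, in log2(FPKM + 1), coloured by role, with lines at 0 and a cross at the median of all genes tested, 0.27. Ncl and Npm1 lie far below 0 in both genotypes and Nhp2 and Nop16 far above it, while Odc1 is lowest of all in WT, at -0.71, and stands at 0.16 in KI.

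Among the members called, nucleolin showed the largest fall. Ncl, on chromosome 1 from 86344719 to 86359455 (GRCm38, minus strand), stood at 443 and 450.1 FPKM in number 1 and at 289.6 and 299 in number 2. The 2 libraries of a number were close and the numbers did not overlap. Its log2 difference was -0.60 with SE 0.073 (limma, adjusted p = 0.0040), and -0.86 after median scaling (adjusted p = 0.0045). Npm1, on chromosome 11 from 33152498 to 33164142, fell by 0.49 with SE 0.080 (limma, adjusted p = 0.0070), and by 0.75 after median scaling (adjusted p = 0.0059). Without KI replicate 2 its difference was -0.48 (limma, adjusted p = 0.056). Wdr43 had a difference of -0.32 with SE 0.081 (limma, adjusted p = 0.0240) and Lyar of -0.27 with SE 0.081 (adjusted p = 0.0408). The call for Lyar was lost without WT replicate 2, KI replicate 1 or KI replicate 2. The call for Wdr43 was lost without WT replicate 2 (limma, adjusted p = 0.16) and without KI replicate 2 (0.073).

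On the other side, Nhp2 and Imp3 rose in number 2 with and without scaling. Nhp2, on chromosome 11 from 51619773 to 51623718, stood at 74.1 and 82.1 FPKM in number 1 and at 119.6 and 132.8 in number 2. Its log2 difference was 0.69 with SE 0.092 (limma, adjusted p = 0.0048), and 0.43 after median scaling (adjusted p = 0.0266). Imp3 stood at 25.4 and 24.7 FPKM against 38.4 and 38.8, with a difference of 0.61 and SE 0.080 (limma, adjusted p = 0.0046), and 0.35 after median scaling (adjusted p = 0.0324). Both were called with any 1 library left out. Nop16 (0.68, SE 0.16, limma adjusted p = 0.0170), Rrp9 (0.53, SE 0.12, 0.0181) and Polr1c (0.44, SE 0.090, 0.0122) were called without scaling and not after it, with adjusted p of 0.10, 0.16 and 0.20. With the replicate block added to median scaling, Nop16 was called (0.42, limma adjusted p = 0.0278). Without KI replicate 2 none of these 3 was called (limma, adjusted p = 0.0986, 0.0957 and 0.0892), and without WT replicate 2 Rrp9 and Polr1c were not (0.0938 and 0.0673). Of the other box H/ACA genes, Nop10 was called (0.50, SE 0.13, limma adjusted p = 0.0231), while Dkc1 had a difference of -0.013 and Gar1 of 0.083, and neither was called. Fbl, Nolc1, Noc2l, Heatr1 and Polr1a were not called in either fit, and the sign of their difference depended on scaling. Odc1 was not called (limma, adjusted p = 0.29), and its difference of -0.28 turned to 0.034 without WT replicate 1. Without KI replicate 1 it was called, at -0.59 (limma, adjusted p = 0.0037).

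By role, the 15 large-subunit factors held 9 of the 16 members called higher without scaling, where 35.6% of all genes were called. The 7 abundant nucleolar proteins held 3 of the 4 called lower, where 4.60% of all genes were. The median difference was 0.31 over the large-subunit factors, 0.29 over the box H/ACA genes, 0.063 over the small-subunit factors and 0.0036 over the abundant nucleolar proteins, against 0.27 over all genes tested. After median scaling, 0 large-subunit factors were called higher and 2 lower, where 9.12% and 10.4% of all genes were. Their median was then 0.049, while the small-subunit factors had a median of -0.19. The abundant nucleolar proteins had a median of -0.25 after scaling, with the same 3, Lyar, Ncl and Npm1, called lower. The numbers did not overlap for 25 members that stood higher in number 2, where 63.5% of all genes did, and for 8 that stood lower, where 12.7% did. With 7 or fewer genes in some roles, these medians are descriptions.

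The difference between numbers went with coding length. Over the 48 members, Spearman's correlation between the coding length of the leading transcript (GENCODE M21) and the difference between numbers was -0.52, and it was -0.37 over 10695 tested genes with a coding length. The correlation runs across genes, which share the same 4 libraries and are not independent. The 12 members with the shortest coding sequences, of 192 to 981 bases, had a median difference of 0.49, and 11 of them were higher in number 2, with Npm1 as the exception, where 79.0% of all genes tested were higher. The 12 with the longest, of 2409 to 8367 bases, had a median of 0.0058, and 6 were higher. With mean level, the difference between numbers had a Spearman correlation of -0.30 over the members and 0.016 over the 11083 genes tested. The correlation of coding length with the difference between genotypes was 0.21 over the members and 0.019 over all genes with a length.

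**Figure D4:**
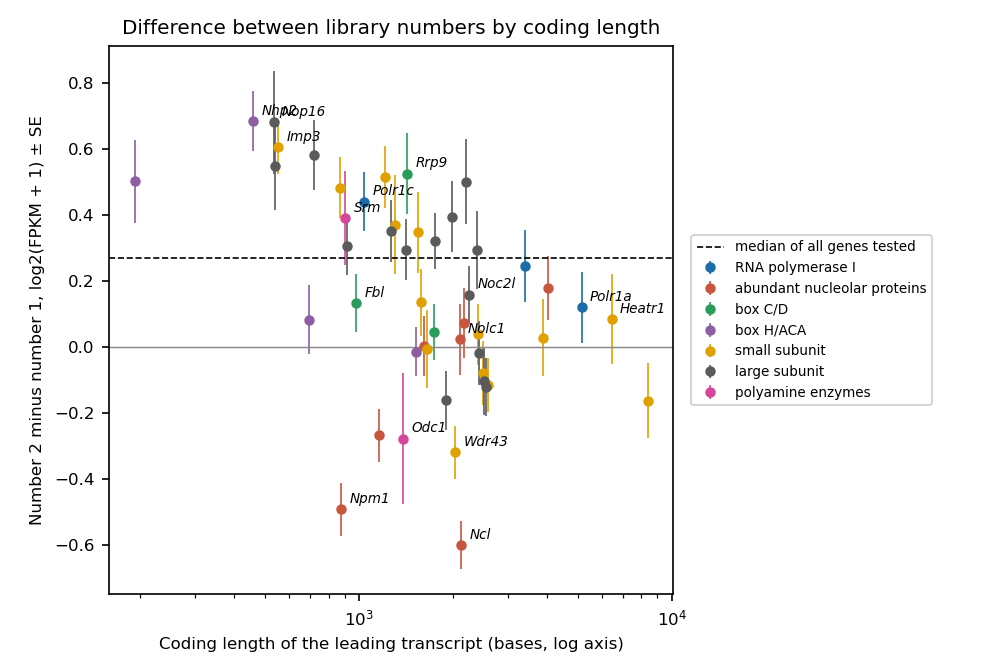
Difference between number 2 and number 1 for each of the 48 members, in log2(FPKM + 1) with limma's SE as bars, against the coding length of the leading transcript in bases on a log axis, coloured by role. The dashed line is the median of all genes tested, 0.27. Members with short coding sequences lie mostly above 0, while Npm1 and Ncl lie at -0.49 and -0.60.

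For 7 members the table held several transcript rows, and Cufflinks divides reads between overlapping transcripts by estimate. The main rows of Npm1 moved together: the row NM_008722 held between 50.1% and 53.7% of the gene's FPKM in the 4 libraries. For Wdr12 the rows did not move together. Its row NM_021312 stood at 21.0 FPKM in WT-1 and 19.3 in KI-1, and at 15.2 in WT-2 and 12.9 in KI-2. The row NM_001199061 stood at 0.0041 and 0.017 FPKM in number 1 and at 8.72 and 11.8 in number 2. Both rows have a coding length of 1269 bases. The sum over rows of Wdr12 was called higher in number 2 (0.35, SE 0.095, limma adjusted p = 0.0286), while its leading row alone was called lower. For Nolc1, whose sum was 59.5 to 69.5 FPKM, the row NM_001039351 held 42.1% and 44.7% of it in WT and 35.6% and 52.9% in KI, so that the steady sum hid rows that varied more, and this leading row overlapped between genotypes. The leading row of Rrp1b, NM_028244, stood at 16.8 and 15.8 FPKM in WT and 16.2 and 19.6 in KI, and its minor row NM_001163734 at 0.00037 and 3.04 in WT and 3.55 and 0.058 in KI.

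**Figure D5:**
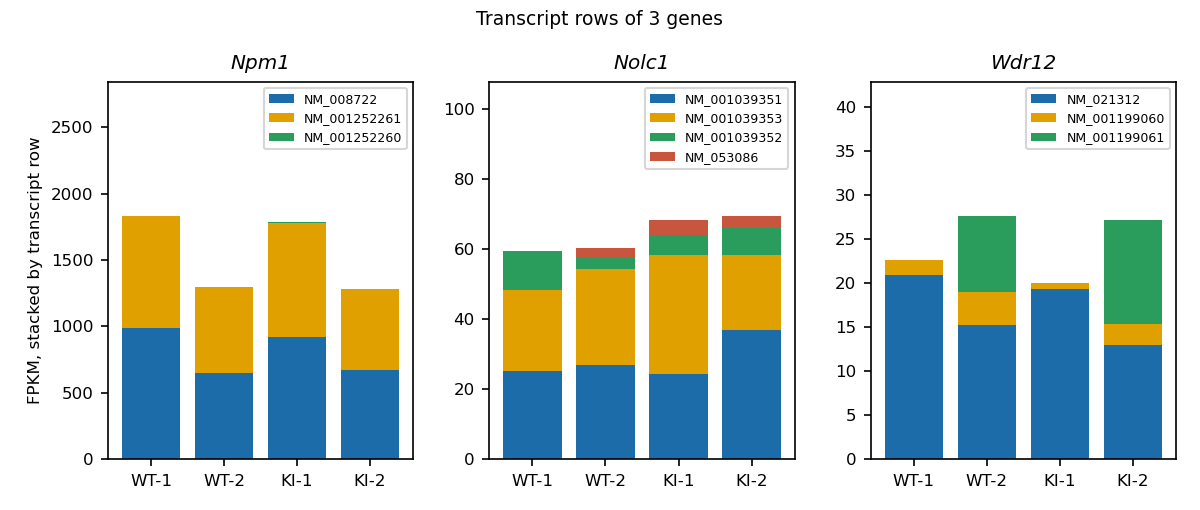
FPKM of each transcript row of Npm1, Nolc1 and Wdr12 in the 4 libraries, stacked so that the height of a bar is the sum used for the gene. For Wdr12 the row NM_001199061 is near 0 in number 1 and stands at 8.72 and 11.8 FPKM in number 2.

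A wider list of 153 symbols of ribosome biogenesis and polyamine genes outside the set, some of them older and newer names of the same gene, gave 139 tested genes. Between the genotypes, 0 of the 139 passed the test (limma, adjusted p under 0.05) and 0 had an unadjusted p under 0.05. By their mean difference 91 were higher in KI, or 65.5%, against 52.05% of all genes tested. KI was higher in both numbers for 63, or 45.3%, against 28.7% of all genes, and the median log2 difference was 0.050. Those with the smallest unadjusted p on the higher side were Amd1, which makes the aminopropyl donor for spermidine, at 13.8, 42.0, 33.4 and 48.5 FPKM, and Wdr18, at 11.5, 17.8, 16.0 and 21.5. They were followed by the large-subunit factor Rrs1, at 21.3, 26.5, 26.1 and 32.4, and the RNA polymerase I subunit gene Cd3eap, at 9.75, 15.2, 13.7 and 17.5. On the lower side, Sat1, which acetylates spermidine and spermine for breakdown or export, stood at 29.5, 29.7, 23.7 and 24.6 FPKM, without overlap. The kinase gene Riok1 stood at 23.1, 19.8, 19.1 and 18.3, also without overlap. The exosome gene Exosc2 stood at 85.0, 62.9, 57.1 and 64.8, and Taf1d at 119, 68.2, 89.2 and 60.8. Both KI libraries lay below both WT libraries for 5 of the 139 genes, where 7.06% of all genes did. They lay above them for 14, where 6.39% did.

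Between the numbers, 45 of these 139 genes were called higher in number 2 and 5 lower (limma), where 35.6% and 4.60% of all genes were. After median scaling the counts were 7 and 24, where 9.12% and 10.4% of all genes were called. Without WT replicate 2 the counts without scaling were 13 and 1, and without KI replicate 2 they were 9 and 1. The highest-ranked were Oaz1, antizyme, which brakes ornithine decarboxylase, at 229 and 219.6 FPKM in number 1 and 404 and 442 in number 2, and Polr1d, at 55.2 and 54.4 against 92.2 and 101. Gltscr2 stood at 118 and 119 against 192 and 192, and Znhit3 at 3.22 and 2.74 against 7.74 and 10.4. On the lower side, Esf1 stood at 19.5 and 20.9 FPKM in number 1 and 13.1 and 13.4 in number 2. Mdn1, a large ATPase of large-subunit assembly, stood at 13.3 and 15.9 against 7.60 and 9.16, and Gnl2 at 83.5 and 82.0 against 67.9 and 67.0. These 3 genes and Taf1d, with log2 differences from -0.73 to -0.29, were also called after scaling (limma, adjusted p between 0.0056 and 0.012). So were Oaz1, Polr1d, Gltscr2 and Znhit3 on the higher side (limma, adjusted p between 0.0082 and 0.0134).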

How the data were processed

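LSK cells were profiled in 4 libraries, 2 per genotype, with groups and replicate numbers taken from the sample titles. The submitters' processing notes name TopHat, Cufflinks and the builds mm10 and GRCm38. Versions, settings and strand are not stated there. The authors deposited FPKM for each RefSeq transcript (18691 rows), normalized log2 values per library, and their own comparison with a signed fold and t statistic (both entered as a score) and p-values. The lowest FPKM was 1e-06 and none was 0. No counts were used here, so that depth is unknown and intervals for counting error were left out.

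FPKM was summed per symbol, filtered at a mean of at least 1 and tested as log2(FPKM + 1) with limma 3.58.1 in R 4.3.3 (two-sided, prior variance following the mean, Benjamini-Hochberg over 11083 genes, threshold 0.05), with genotype or library number as the only term. The test was also run on simulated data, and the outcome is not given here. Alternatives were a replicate block, a pseudocount of 0.1, no filter, median and quantile scaling, the leading transcript row, and leaving out each library. The block with median scaling was added after seeing the data. Members, roles and lists were chosen with earlier results of these data known. Differences with SE are given for the most abundant member and that with the smallest p between genotypes in each role, and for the 3 highest and 3 lowest between numbers. Other genes of the pathway list are named by the 4 smallest p per direction and comparison. Members given with values outside that rule were chosen after their values were seen.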

Additional observations from a re-analysis of the deposited data

How the results depend on the processing

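Between genotypes, 0 members and 0 genes of the wider list were called under every alternative run, and 22 members were higher in KI in both numbers in the reported values. With the library number as a term (replicate block), 0 members again passed the adjusted threshold. Of the 48 members, 6 had an unadjusted p under 0.05 (limma), all higher in KI: Nolc1, Heatr1, Nop2, Nop16, Bop1 and Srm. In the same fit, 402 of 11083 genes were higher and 385 lower, so the share higher in KI was larger among the members. That fit used only the number the libraries share, since the deviations of same-numbered libraries correlated at 0.69 over genes but 2 pairs do not establish a pairing. Fits without 1 library leave the numbers unbalanced between genotypes, and the lone library of a group is assumed to vary like the others. The members' median between genotypes then ranged from -0.027 to 0.20, and that of all genes tested from -0.13 to 0.14.

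Between numbers, the count of members called ranged from 2 to 17 higher and 1 to 4 lower when 1 library was left out. It was 2 and 7 under median scaling, 2 and 7 under quantile normalization, and 3 and 7 under median scaling with the replicate block, where the third was Nop16. For the wider list, the counts ranged from 9 to 51 and from 1 to 7 without 1 library. They were 7 and 24 under median scaling, 10 and 24 under quantile normalization and 10 and 24 with the block added to median scaling, and 3 were lower with the leading transcript row. The members' median between numbers ranged from 0.068 to 0.20 without 1 library and was -0.12 under both median scalings and -0.117 under quantile normalization. The same 3 scalings turned Polr1a (-0.135, -0.13, -0.135), Nolc1 (-0.233, -0.206, -0.233), Fbl (-0.123, -0.11, -0.123), Heatr1 (-0.171, -0.166, -0.171) and Noc2l (-0.097, -0.058, -0.097), in the order median, quantile and median with block. Scaling removes the shift of all genes by construction. Between genotypes, Npm1 turned to 0.047 under quantile normalization, and the cause was not tested.

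Without 1 library, the differences between genotypes ranged from -0.304 to 0.235 for Polr1c, from -0.281 to 0.223 for Npm1, from -0.056 to 0.192 for Fbl and from -0.184 to 0.494 for Rrp9. They ranged from -0.196 to 0.492 for Nhp2, from -0.153 to 0.244 for Wdr43, from -0.074 to 0.195 for Noc2l and from -0.015 to 0.679 for Nop16. The ranges were -0.543 to 0.168 for Odc1, -0.271 to 0.341 for Ncl and -0.331 to 0.302 for Imp3. Between numbers they were -0.077 to 0.125 for Nolc1, -0.071 to 0.242 for Heatr1 and -0.588 to 0.034 for Odc1. With 2 libraries per group, the precision of each difference is limited by their number.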
